A study of Mus musculus with 170 samples.

Results

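Young liver progenitors were set against young pancreatic beta cells across all genes of a bulk RNA-sequencing count table. The liver progenitors (3 libraries) were sorted from liver and the beta cells (4 libraries, numbered 1, 3, 4 and 5) from pancreas, so 7 of the 170 libraries of the series entered the contrast. All animals were mice of C57/Bl6 background, untreated as far as the labels say, aged 2 months in the young groups and 22 to 24 months in the old ones. Each library came from cells of 5 pooled animals, purified by fluorescence activated cell sorting; which surface markers or reporters guided the sorts is not given in the sources used. The same contrast was measured in 3 old liver progenitor and 4 old beta cell libraries. A pool mixes its animals, so the p-values measure the spread between pools. Cell type, organ, sort and dissociation change together in this contrast and cannot be told apart. In bulk libraries fewer cells of a type and less RNA per cell cannot be told apart either.

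Liver progenitors are epithelial cells of the biliary tree and the smallest bile ducts, which can divide after injury and are known for keratin 19, SOX9, EPCAM and osteopontin. Beta cells are the insulin-secreting endocrine cells of the pancreatic islets; they sense glucose through its metabolism, close a potassium channel, open calcium channels and release insulin from dense granules. Both arise from neighbouring parts of the foregut endoderm and share early transcription factors of the FOXA, ONECUT, GATA and SOX families. Bile duct cells in the adult keep SOX9, whereas beta cells replace it with PDX1, NKX6-1, MAFA, NEUROD1 and other islet factors.

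Levels are CPM, the usual per-library scaling of counts, taken on library sizes adjusted by TMM so that most genes centre on no difference. They count 3' tags and are compared within a gene only, never between genes. Differences are log2 fold changes, liver progenitors minus beta cells, with the standard error (SE) of the edgeR quasi-likelihood fit, and a gene is called at a Benjamini-Hochberg adjusted p below 0.05 over all genes tested. Libraries are listed in the order of their numbers.

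Krt19 and Sox9 were high in liver progenitors, and Ins2 was highest in beta cells. Krt19 (chr11:100140810-100148665, minus strand, GRCm38), a keratin of simple ductal epithelium, was at 228, 208 and 223 CPM in the liver progenitor libraries and at 9.68, 19.5, 7.67 and 12.7 CPM in the beta cell libraries. Sox9 (chr11:112782224-112787760, plus strand), a transcription factor of duct and progenitor cells, was at 1389, 2065 and 1491 CPM against 19.96, 41.6, 28.8 and 17.9 CPM. Every liver progenitor library was above every beta cell library for both genes, by 4.15 ± 0.25 (SE) for Krt19 and 5.93 ± 0.31 for Sox9 on the log2 scale, with adjusted p of 5.757e-09 and 1.703e-09. Ins2, which encodes the main insulin of the mouse, was at 28670, 26210 and 28860 CPM in liver progenitors and at 458600, 404200, 405600 and 517800 CPM in beta cells, a log2 difference of -4.00 ± 0.60 with an adjusted p of 5.164e-05. The beta cell libraries were all higher, yet Ins2 was also the most counted gene of the liver progenitor libraries, at 4.50% of their counts on average against 30.3% in beta cells.

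**Figure D1:**
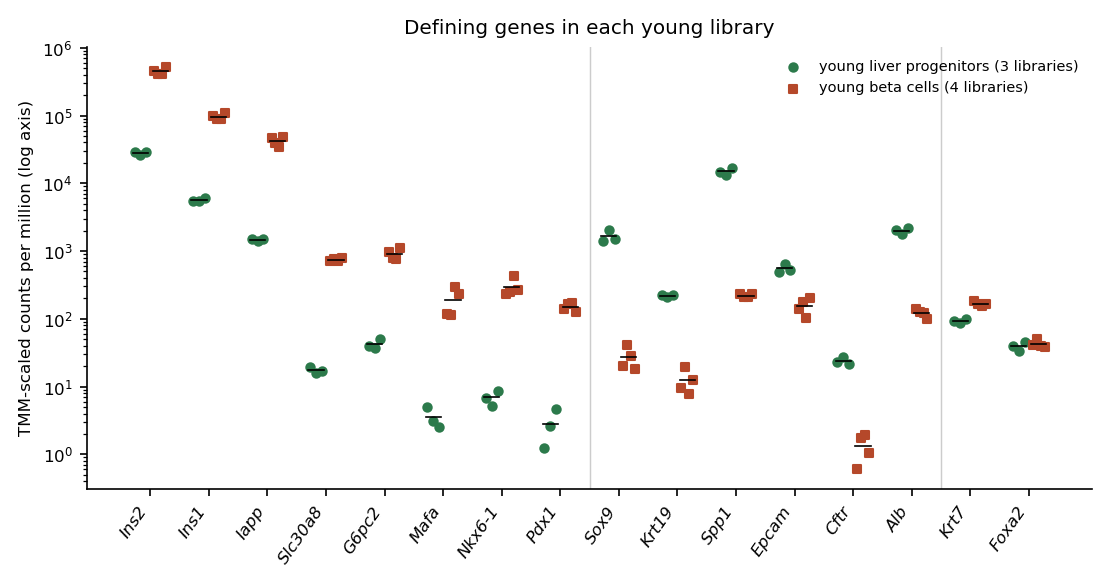
Each point is a young library and each line a group mean, in TMM-scaled CPM on a log axis, for 16 defining genes. Islet genes are at the left, biliary and liver genes in the middle, and Krt7 and Foxa2 at the right. Ins2, Ins1 and Iapp lie between 1424 and 28860 CPM in liver progenitors, whereas Mafa, Nkx6-1 and Pdx1 are at or below 8.72 CPM there.

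Transcripts typical of the other group were present in both groups. Ins1, Ins2 and Iapp together took 5.88%, 5.21% and 5.88% of the counts of the liver progenitor libraries and 43.1%, 29.4%, 42.5% and 43.9% in beta cells. The old liver progenitor libraries held a similar share, from 5.03% to 6.21%. Over 25 beta cell markers and granule genes the level in liver progenitors was 2.38% of that in beta cells in the median, from 1.26% for Scg3 to 49.0% for Nucb2, with 6.25% for Ins2, 5.88% for Ins1 and 3.50% for Iapp. In the other direction, 20 biliary, liver factor and hepatocyte genes with at least 50 CPM and a more than 2-fold call were taken. Their median level in beta cells was 8.58% of that in liver progenitors, from 1.48% for Spp1 to 31.3% for Muc1. That call by itself keeps these levels low, and the 25 beta cell genes were not chosen by it, so the medians are not like measures. Among the other 21 young cell types of the series the highest Ins2 mean was 249.9 CPM on library totals, in muscle satellite stem cells, and the median of their means was 0.0957, against 45040 in liver progenitors. The part of these transcripts in the differences below was not tested.

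Acinar RNA was the other feature of the young beta cell libraries. The 13 listed genes of acinar cells, which make the digestive enzymes of the exocrine pancreas, took 8.66%, 23.8%, 5.65% and 11% of the counts of the young beta cell libraries, highest in replicate 3. In the old beta cell libraries they took 0.349% to 1.83%, and in liver progenitors of either age 0.209% to 0.251%. Other islet hormones were present in young beta cells as well: Gcg, the glucagon gene of alpha cells, was at 2663, 745, 1651 and 853 CPM, Sst of delta cells at 1222, 390, 905 and 394 CPM, and Ppy at 2301, 368, 851 and 488 CPM. Replicates 1 and 4 held more of these 3 hormones than replicates 3 and 5.

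Marker genes of several other cell types were low in both groups. The summed level of 10 stellate cell and fibroblast genes was 13.1 to 80.7 CPM in liver progenitors and 10.6 to 23.2 in beta cells, and that of 8 endothelial genes 7.51 to 24.1 and 30.7 to 37.2 CPM. Among 10 macrophage genes Csf1r was at 138, 110 and 105 CPM in liver progenitors against 21.2, 11.5, 46.0 and 9.50, and C1qa went the other way, at 2.50, 0.877 and 1.54 CPM against 43.6, 43.4, 29.7 and 40.1 CPM, whereas Adgre1, C1qb, C1qc and Marco did not pass 2 CPM in any of the 7 libraries. Erythroid genes summed to 67.7 CPM in liver progenitor replicate 3, mostly Hbb-bs at 41.5 CPM, and that library also led for Apoa1, Apoa2, Fabp1 and Fgb among hepatocyte genes. Total counts were 969381 to 1447013 in liver progenitors and 1298270 to 2318108 in beta cells. The 10 most counted genes took 17.5% to 17.9% and 51.0% to 54.96% of them, which leaves a smaller share of the counts for all other genes in beta cells. The part of these markers and of depth in the differences was not tested.

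The promoters of 3 genes called in this contrast, 1 lower and 2 higher in liver progenitors, are shown because they hold short motifs of factors that also differed between the groups. They are the 250 bases before the annotated start from RefSeq, build GRCm38.p6: Ins1 (chr19:52264047-52264296, plus strand), Alb, the albumin gene (chr5:90460620-90460869, plus strand), and Pkhd1, the gene of the duct cilium protein fibrocystin (chr1:20618058-20618307, minus strand). Capitals mark exact matches on either strand to GCCATCTG, an E box of insulin promoters bound by NEUROD1, and to TAATTA, a homeodomain site.
Ins1: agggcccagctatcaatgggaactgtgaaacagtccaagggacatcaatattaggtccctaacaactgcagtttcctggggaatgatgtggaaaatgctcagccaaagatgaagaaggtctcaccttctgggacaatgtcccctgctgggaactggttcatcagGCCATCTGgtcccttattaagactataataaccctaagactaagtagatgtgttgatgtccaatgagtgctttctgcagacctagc
Alb: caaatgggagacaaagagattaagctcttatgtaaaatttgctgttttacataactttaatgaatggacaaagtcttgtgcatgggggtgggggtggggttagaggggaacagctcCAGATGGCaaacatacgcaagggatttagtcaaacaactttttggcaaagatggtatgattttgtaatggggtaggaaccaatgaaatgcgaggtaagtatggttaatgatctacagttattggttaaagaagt
Pkhd1: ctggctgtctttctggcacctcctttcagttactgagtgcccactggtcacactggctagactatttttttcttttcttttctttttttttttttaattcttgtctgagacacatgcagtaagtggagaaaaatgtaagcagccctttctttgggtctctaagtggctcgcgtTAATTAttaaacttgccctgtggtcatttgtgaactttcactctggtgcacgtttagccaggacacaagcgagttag

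The E box of Ins1 began 86 bases before the start, and Alb held the same letters on the other strand 134 bases before its start. TAATTA began 77 bases before the start of Pkhd1. Over 32851 promoters of this length 1.11% held GCCATCTG and 4.84% TAATTA. Over the promoters of genes tested the shares were 0.7765% and 2.465%. Among the promoters of genes more than 2-fold higher in liver progenitors they were 1.10% and 2.56%, and among those of genes more than 2-fold lower 1.405% and 3.34%. Matches describe letters only.

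The contrast was broad. Of 10616 genes tested, 2709 were higher in liver progenitors (25.5%) and 2606 lower (24.5%). A gene counted in 1 group only could pass the filter on low counts and then differ in 1 direction only. The numbers of tested list members called and the list medians below are therefore shaped by that filter. More than 2-fold differences, tested as such with glmTreat, were called for 1364 genes higher (12.8%) and 1218 lower (11.5%). The median log2 fold change of all genes tested was 0.03. TMM factors were 1.62 to 1.69 in liver progenitors and 0.558 to 0.821 in beta cells; with library totals and no factors the median moved by 1.26 and 7347 genes were higher and 856 lower. The share of calls that were higher was 51.0% with TMM and 89.6% without factors, so every direction below is relative to the bulk of genes. Without beta cell replicate 3, the library richest in acinar RNA, 2600 genes were higher and 2504 lower.

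Islet transcription factors made up the sharpest difference in gene control. Of 20 listed, 15 were tested, 14 were lower in liver progenitors and 1 was higher, with a median of -5.04. Pdx1, the homeodomain factor that founds the pancreas and drives insulin transcription, was at 1.25, 2.63 and 4.62 CPM in liver progenitors and at 138, 166, 173 and 125 CPM in beta cells, a difference of -5.65 ± 0.32 with an adjusted p of 2.869e-09. Nkx6-1, which holds beta cell identity, was at 6.88, 5.26 and 8.72 CPM against 235, 249, 430.5 and 266 CPM (-5.40 ± 0.31). Mafa, the factor of mature beta cells, was at 5.01, 3.07 and 2.56 CPM against 117, 113, 298 and 234 CPM (-5.74 ± 0.45). No library of the liver progenitors came near the beta cell range for these 3 genes, and beta cell replicate 4 was the highest for each of them.

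The other islet factors showed the same pattern with exceptions. Neurod1, the partner of E proteins at insulin E boxes, was at 3.13, 2.63 and 8.21 CPM against 308, 269, 554 and 343 CPM, the largest difference of the list at -6.28 ± 0.40. Pax6, a regulator of all islet hormones, was at 8.76, 16.2 and 8.21 CPM against 358, 319, 429 and 389 CPM (-5.04 ± 0.28), and Isl1 at 3.13, 2.19 and 3.59 CPM against 138, 117, 129 and 129 CPM (-5.41 ± 0.27). Myt1, St18, Nkx2-2, Insm1 and Rfx6 were lower by 4.47 to 5.84 on the log2 scale, and Mlxipl, the glucose-responsive factor ChREBP that liver also uses, by 2.75. Neurog3 and Pax4, which act in endocrine precursors, were at 0 in all 7 libraries. Rfx3, a ciliary factor, was lower by 0.93, and that call was lost without beta cell replicate 5 (adjusted p = 0.0832) or liver progenitor replicate 2 (0.0993) or 3 (0.0943), and the sign turned without scaling factors (0.34). Glis3, which serves both ducts and beta cells, was the exception in direction, at 46.9, 55.7 and 31.8 CPM in liver progenitors and 28.4, 24.8, 19.2 and 21.1 CPM in beta cells (0.92 ± 0.25).

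**Figure D2:**
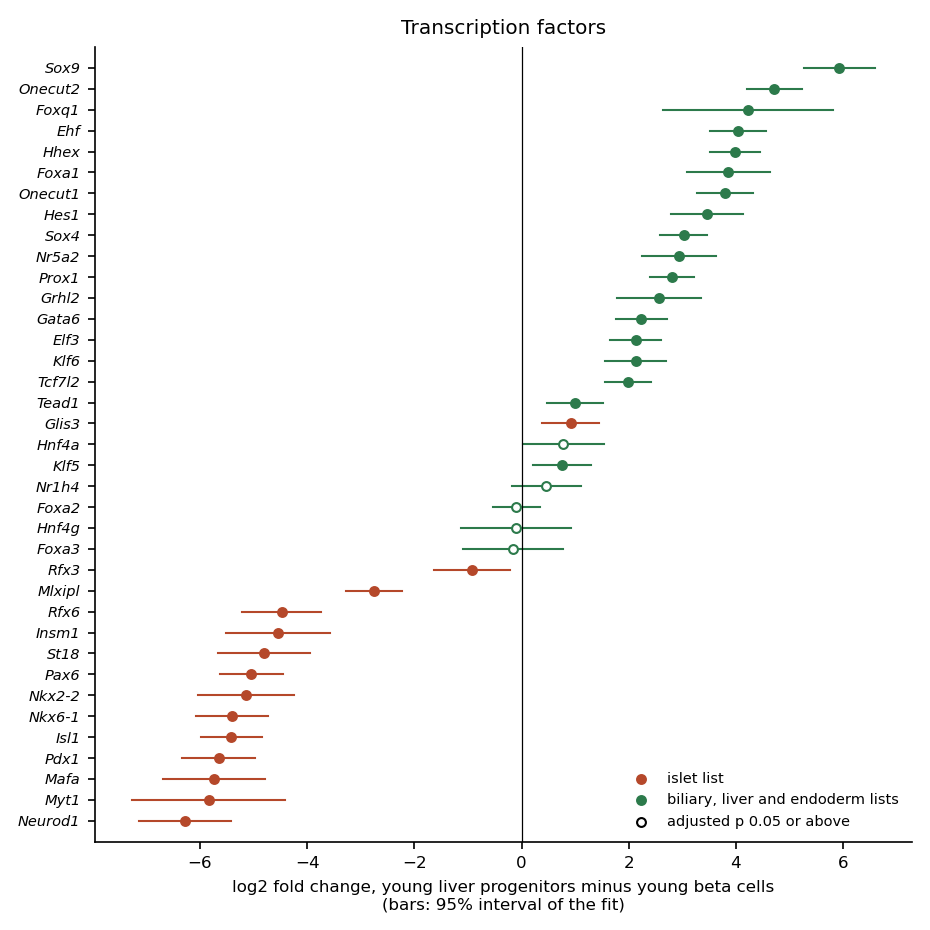
Log2 fold change of tested transcription factors, young liver progenitors minus young beta cells, with the 95% interval of the fit; islet factors in red, biliary, liver and endoderm factors in green, open circles not past the threshold. Neurod1 is lowest at -6.28 and Sox9 highest at 5.93, and Foxa2, Foxa3, Hnf4g, Hnf4a and Nr1h4 are the open circles around 0.

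Genes of the insulin granule were lower without exception among those tested. Of 19 listed, 17 were tested and 17 were lower, with a median of -5.25, and 16 of them by more than 2-fold. Ins1 (chr19:52264297-52265476, plus strand) was at 5461, 5393 and 6088 CPM against 98420, 89350, 88840 and 107400 CPM (-4.09 ± 0.45), and reads of the near-identical Ins1 and Ins2 may have been split between them in the counting. Iapp, the amyloid peptide released with insulin, was at 1505, 1424 and 1500 CPM against 47020, 39770, 33890 and 48240 CPM (-4.84 ± 0.41). In each case the liver progenitor libraries lay close together, below all beta cell libraries. The convertase Pcsk2 was at 67.6, 57.0 and 56.4 CPM against 4943, 4510, 3830 and 4684 CPM (-6.22 ± 0.31). Carboxypeptidase E (Cpe), which trims the cut peptides, differed by -5.86 ± 0.27. Scg5 differed by -5.39, Pcsk1n by -5.40, the granule protein Scg3 by -6.32 and the zinc transporter Slc30a8 by -5.43. Nucb2 was the smallest of the set at -1.03 ± 0.27.

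Glucose sensing and excitability genes followed, with 21 of 22 tested and all 21 lower, at a median of -4.53. Glp1r, the receptor of the incretin GLP-1, was at 20.7, 19.3 and 17.95 CPM in liver progenitors and at 853, 1253, 776 and 1042 CPM in beta cells (-5.66 ± 0.28). G6pc2, the islet glucose-6-phosphatase, was at 40.04, 37.7 and 50.3 CPM against 955, 789, 752 and 1111 CPM (-4.40 ± 0.25). The groups stood apart for both genes. The subunits of the ATP-sensitive potassium channel differed by -4.55 (Abcc8) and -4.53 (Kcnj11), the channel Kcnk16 by -4.86, the somatostatin receptor Sstr3 by -4.55 and the amino acid transport partner Cltrn by -4.52. Slc2a2, the glucose transporter GLUT2 of both liver and beta cells, differed least: 164, 143 and 164 CPM against 410.1, 408, 502 and 498 CPM, or -1.53 ± 0.19. Without scaling factors Slc2a2 kept its sign but missed the threshold (-0.28, adjusted p = 0.241).

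Genes for vesicle fusion and for neuronal-type functions were lower together. Of 21 exocytosis genes 18 were tested and 18 lower (median -3.57), and of 22 neuronal-type genes 17 were tested and 17 lower (median -4.86). Snap25, a membrane SNARE of regulated release, was at 2.50, 1.32 and 2.05 CPM against 89.5, 122, 127 and 137 CPM (-5.90 ± 0.32). The calcium sensors and adaptors Syt13 (-5.47), Scgn (-5.34) and Sytl4 (-4.88) were as far apart, whereas Vamp2, Syt7 and Rab3d, used in many secretory cells, differed by -1.39, -1.28 and -1.01 and were not called at more than 2-fold. Rest, the repressor that silences neuronal genes outside neurons and endocrine cells, went the other way, at 66.9, 83.8 and 58.5 CPM against 15.1, 4.43, 8.63 and 5.28 CPM (2.96 ± 0.32). No liver progenitor library overlapped the beta cell range for Rest.

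Genes of protein folding in the endoplasmic reticulum were also lower in liver progenitors. Of 27 listed, 26 were tested and 23 were lower, 17 of them by more than 2-fold, with a median of -1.61; without scaling factors 10 were lower and 4 higher. Ero1lb, the beta cell oxidase that forms disulfide bonds in proinsulin, was at 13.1, 17.98 and 13.3 CPM against 537, 597, 598 and 845 CPM (-5.42 ± 0.27). Sdf2l1, a folding cofactor, was at 8.76, 10.1 and 7.18 CPM against 237, 462, 171 and 316 CPM (-5.07 ± 0.36), Manf differed by -3.05 and Dnajb9 by -2.53. Ero1lb was highest in beta cell replicate 5 and Sdf2l1 in replicate 3, the library with the largest acinar share; without replicate 3 Sdf2l1 differed by -4.78 and 23 genes of the list were again lower. Xbp1, the factor of the secretory pathway, was lower by 0.82 with TMM and higher by 0.46 without scaling factors.

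On the biliary side 13 of 15 marker genes were tested and 12 were higher, with a median of 3.38. Spp1 (chr5:104435118-104441050, plus strand), the secreted phosphoprotein osteopontin, was at 14740, 13180 and 16920 CPM in liver progenitors and at 231, 213, 208 and 231 CPM in beta cells (6.08 ± 0.31). The libraries of each group lay close together, and Spp1 was 67.7-fold higher in liver progenitors. Epcam, a surface protein of epithelia, was at 493, 651 and 532 CPM against 139, 175, 102 and 204 CPM (1.85 ± 0.23), and Cd24a at 262, 339 and 297 CPM against 36.3, 102, 27.8 and 43.3 CPM (2.52 ± 0.33); beta cell replicate 3 was the highest of its group for Cd24a. Cftr, the chloride channel of bile duct cells, was at 23.2, 27.6 and 21.5 CPM against 0.605, 1.77, 1.92 and 1.06 CPM (4.17 ± 0.40).

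Krt7, listed as a biliary keratin, was the member that went against its list. It was at 93.9, 86.0 and 101 CPM in liver progenitors and at 182, 163, 153 and 164 CPM in beta cells, lower by 0.82 ± 0.17 with TMM (adjusted p = 0.00113) but higher by 0.44 without scaling factors. All 4 beta cell libraries were above all 3 liver progenitor libraries on the TMM scale. Aqp1, another biliary marker, was too low to test, at no more than 3.59 CPM.

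Transcription factors of bile duct and liver were higher in 14 of the 15 tested of 18, with a median of 3.03. Onecut2, a cut-homeodomain factor of hepatobiliary development, was at 278, 258 and 228 CPM against 9.68, 12.4, 10.6 and 5.28 CPM (4.72 ± 0.24), and its paralogue Onecut1 differed by 3.80 ± 0.25. Ehf, an ETS factor of ductal epithelia, was at 177, 181 and 170.3 CPM against 6.65, 14.2, 13.4 and 9.50 CPM (4.03 ± 0.24). The groups were far apart for each, with beta cells at or below 14.2 CPM. Sox4, which works beside SOX9 in duct formation, was at 331, 455 and 370 CPM against 46.0, 44.3, 59.5 and 39.0 CPM (3.03 ± 0.21). Prox1 (2.80), Grhl2 (2.57), Elf3 (2.13), Klf6 (2.13), Foxq1 (4.22) and Tead1 (0.99) were higher too. Klf5 was higher by 0.75 with overlapping groups, a call lost without beta cell replicate 1 (adjusted p = 0.0847) or 5 (0.0605) or liver progenitor replicate 2 (0.114). The bile acid receptor gene Nr1h4 did not pass (0.46 ± 0.30, adjusted p = 0.224).

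Factors common to liver and pancreas divided into members with a large difference and members without a call. Of 18 listed, 14 were tested and 10 were higher, with a median of 2.87. Hhex, a homeobox factor of the liver bud that delta cells also use, was at 409, 422 and 460 CPM against 22.4, 36.3, 23.0 and 27.4 CPM (3.98 ± 0.21). Foxa1 differed by 3.86 ± 0.36, Nr5a2 by 2.94 ± 0.33, Gata6 by 2.24 ± 0.22 and Tcf7l2 by 1.98 ± 0.20. Foxa2, a pioneer factor of all endoderm, was at 39.4, 33.8 and 45.6 CPM against 41.7, 49.6, 39.3 and 38.0 CPM. The Foxa2 ranges overlapped, and the difference of -0.09 had a 95% interval of -0.54 to 0.35. Foxa3 (-0.16), Hnf4g (-0.10) and Hnf4a (0.78) also missed the threshold. Without scaling factors Foxa2 and Foxa3 were called higher by 1.18 and 1.16 and Hnf4a by 2.04, and Hnf4g was at 1.13 without a call. Cdx2 and Gata4 stayed at or below 3.54 CPM in all 7 libraries and were not tested.

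Hepatocyte genes were not uniform. Of 14 listed, 8 were tested and 7 higher, with a median of 3.64. Alb was at 2013, 1811 and 2167 CPM against 140.3, 127, 124 and 98.1 CPM (4.03 ± 0.22), Ahsg, a plasma protein, differed by 4.57 ± 0.24, and Serpina1c, an antitrypsin, by 5.42 ± 0.31. These 3 genes separated the groups fully. Ttr, a carrier protein that alpha cells also make, was at 1860, 1463 and 1750 CPM against 1426, 994, 865 and 1142 CPM (0.61 ± 0.23, adjusted p = 0.0395); the call was lost on leaving out beta cell replicate 3, 4 or 5 or any of the 3 liver progenitor libraries (adjusted p from 0.0522 to 0.139). Genes of mature hepatocyte function were low, with Cyp2e1 and Mup20 at no more than 0.959 and 1.82 CPM in any library and Cps1 at no more than 5.13 CPM.

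**Figure D3:**
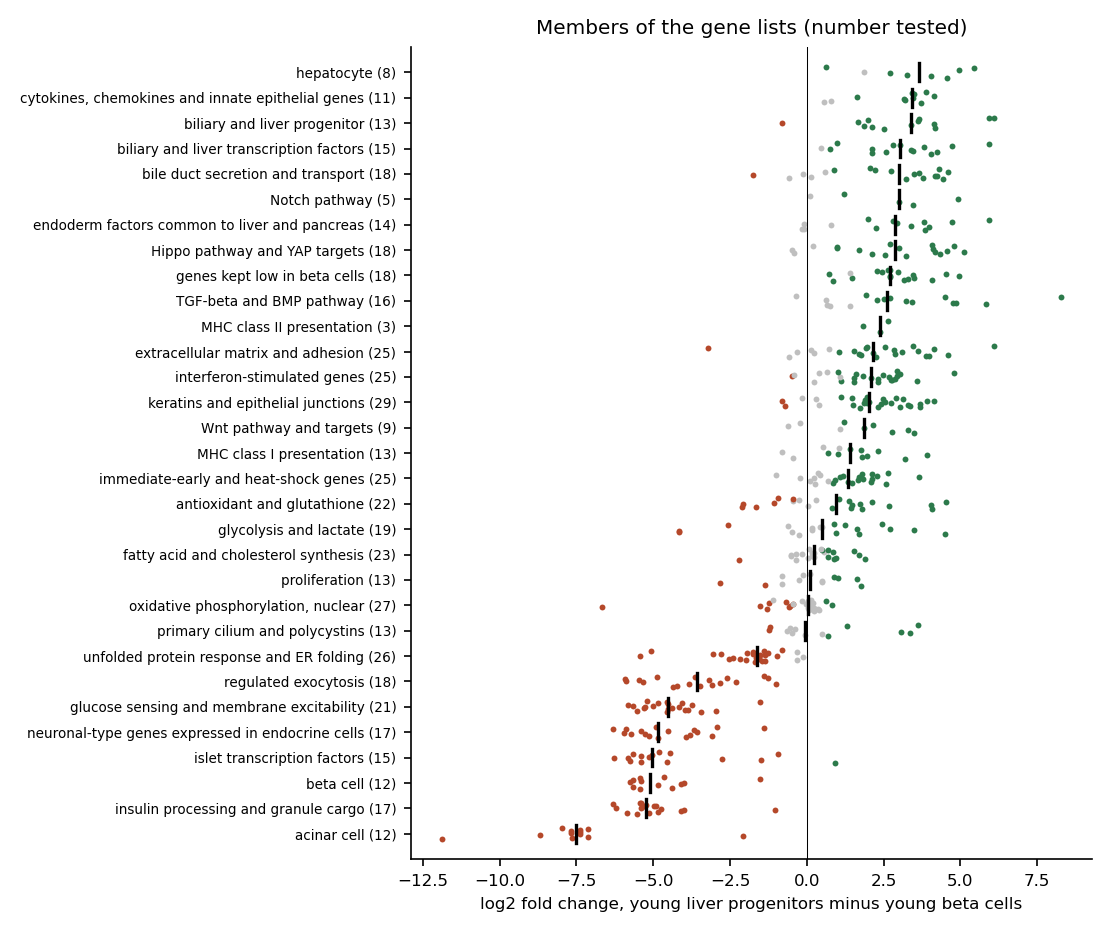
Each point is a tested gene of a list, placed by its log2 fold change in young liver progenitors minus young beta cells; green points were called higher, red points lower and grey points not called, and black bars are list medians. The number tested is in brackets. Endocrine lists lie between -3.57 and -5.25 in the median and biliary lists near 3, with respiratory chain, cilium and proliferation lists near 0.

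Epithelial structure genes were mostly higher in liver progenitors. Of 32 keratin and junction genes 29 were tested, 24 were higher and 2 lower, with a median of 2.02. Krt23, an acidic keratin, was at 140, 123 and 136 CPM against 10.3, 9.74, 4.79 and 9.50 CPM (3.92 ± 0.24), and the desmosomal cadherin Dsg2 at 664, 509.6 and 573 CPM against 38.1, 49.6, 41.2 and 54.9 CPM (3.67 ± 0.21). The tight junction protein F11r differed by 2.75 ± 0.18, Krt8 by 1.97 and Krt18 by 2.55. Neither Krt23 nor Dsg2 overlapped between the groups. Besides Krt7 the lower gene was Cldn4, at 21.9, 25.9 and 29.7 CPM against 50.2, 45.2, 41.2 and 32.7 CPM (-0.72, adjusted p = 0.0159); the call was lost without beta cell replicate 1 (0.0512) or liver progenitor replicate 1 (0.0816) or 2 (0.0523), and the sign turned without scaling factors (0.54).

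Bile duct secretion and transport genes were higher in 13 of the 18 tested of 25, with a median of 2.99. Abcb1a, an export pump of the canalicular and duct membrane, was at 262, 222 and 230.3 CPM against 9.07, 7.08, 14.4 and 14.8 CPM (4.42 ± 0.24). The sodium-glucose transporter Slc5a1 differed by 4.30 ± 0.28, carbonic anhydrase Car2 by 4.23 ± 0.29, the immunoglobulin carrier Pigr by 3.48 ± 0.19 and the chloride channel Ano1 by 3.80 ± 0.32. Slc10a2, the transporter that takes up bile acids from duct bile, was at 11.3, 13.6 and 10.8 CPM against 0.605, 0, 0.959 and 0 CPM (4.59 ± 0.58). Ggt1, a duct enzyme that acinar cells also make, was lower, at 18.1, 16.7 and 21.0 CPM against 34.5, 147, 22.1 and 49.6 CPM (-1.76 ± 0.49). Its highest value was in beta cell replicate 3, without which Ggt1 differed by -0.92 (adjusted p = 0.0161), without scaling factors by -0.38 (0.426), and in the old libraries Ggt1 was higher in liver progenitors by 1.78.

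The cilium list was mixed, with 5 of the 13 tested of 15 higher, 2 lower and a median of -0.06. Of all genes tested 25.5% were higher and 24.5% lower. Among the higher members of the list were genes of cystic duct disease. Pkhd1, shown above, was at 205, 175 and 161 CPM against 14.52, 12.4, 19.2 and 12.7 CPM (3.61 ± 0.22). Bicc1 differed by 3.36 ± 0.19, Cys1 by 3.08 ± 0.37 and Pkd2 by 1.30 ± 0.22. The 2 lower members were general transport genes of cilia, Ift20 by 1.23 and Kif3a by 1.21 with TMM. Both turned sign without scaling factors (0.04 and 0.06), when 10 genes of the list were higher.

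Most tested genes of the Notch, Hippo, Wnt and TGF-beta lists were higher, and the others were not called. In the Notch list only 5 of 18 genes were tested, and 4 were higher with a median of 2.99. Notch2, the receptor required for bile ducts, was at 177, 409 and 117 CPM against 8.47, 7.08, 2.88 and 12.7 CPM (4.91 ± 0.44). Its ligand Jag1 was at 80.1, 183 and 94.4 CPM against 16.3, 13.3, 12.5 and 17.9 CPM (2.99 ± 0.30), and the target gene Hes1 at 1858, 1471 and 1410 CPM against 136, 244, 84.4 and 107 CPM (3.47 ± 0.31). The ranges were separate, and liver progenitor replicate 2 led for the receptor and the ligand but not for Hes1. Rbpj, the DNA-binding partner of Notch, was higher by 1.22, a call lost without liver progenitor replicate 3 (adjusted p = 0.0588).

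The Hippo list holds YAP, the effector of the pathway, with its partners, regulators and targets. Of its 20 genes 18 were tested and 15 were higher, with a median of 2.86. That count mixes these kinds of genes and does not measure YAP activity. Yap1 itself was at 39.4, 29.4 and 22.1 CPM against 7.26, 3.54, 5.75 and 0 CPM (2.72 ± 0.44). Its targets Ccn1, at 372, 530 and 440.5 CPM against 16.9, 26.6, 37.4 and 20.1 CPM (4.16 ± 0.26), and Ankrd1, at 375, 660 and 491 CPM against 26.0, 23.0, 28.8 and 22.2 CPM (4.34 ± 0.24), were far above the beta cell range. Ccn2 differed by 5.12 ± 0.38 and the regulator Amotl1 by 2.55 ± 0.21. Of the 20 Wnt genes 9 were tested and 6 were higher (median 1.86), among them the receptors Fzd1 (3.49), Fzd4 (2.77) and Fzd5 (3.30) and the feedback ligase Rnf43 (2.15), while Lgr5 stayed at or below 12.5 CPM in every library and was not called.

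TGF-beta and BMP genes were higher in 11 of the 16 tested of 21, with a median of 2.61. The Id genes, which BMP signals induce and which block basic helix-loop-helix factors such as NEUROD1, stood out: Id1 was at 218, 185 and 213 CPM against 4.23, 4.43, 2.88 and 2.11 CPM (5.83 ± 0.26), Id2 at 1229, 1286 and 1308 CPM against 54.4, 55.8, 33.6 and 44.3 CPM (4.75 ± 0.23), and Id3 at 243, 279 and 248 CPM against 9.07, 9.74, 8.63 and 7.39 CPM (4.86 ± 0.21). Replicates of each group lay close together for all 3. Of the ligands, Tgfb2 differed by 4.51 ± 0.30, and Tgfb3 was at 24.4, 23.2 and 28.7 CPM in liver progenitors and at 0 in all 4 beta cell libraries, at least 40.5-fold higher against a floor of 3 counts over the beta cell group. With Tgfb3 at that bound the list's median was again 2.61.

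Genes known to be kept low in beta cells were higher in 17 of the 18 tested of 25, with a median of 2.71. Products of some of them, such as Ldha, Hk1 and Slc16a1, would divert pyruvate or weaken glucose sensing. Ldha, lactate dehydrogenase A, was at 117, 110.5 and 126 CPM against 20.6, 31.9, 8.63 and 9.50 CPM (2.70 ± 0.31), and the low-Km hexokinase Hk1 at 15.6, 13.2 and 9.23 CPM against 1.21, 1.77, 0 and 1.06 CPM (3.49 ± 0.52). Slc16a1, the lactate and pyruvate carrier, differed by 2.43 ± 0.41. Beta cells were lower in each library for these 3 genes. Cat, catalase, was at 223, 322 and 179 CPM against 19.4, 15.9, 11.5 and 8.44 CPM (4.07 ± 0.28), and Mgst1, a membrane glutathione transferase, at 1251, 1145 and 1349 CPM against 54.4, 55.8, 52.7 and 53.8 CPM (4.52 ± 0.21). Itih5 (4.94) and Lmo4 (3.46) were higher by similar amounts.

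In glycolysis as a whole 9 of 19 tested genes were higher and 3 lower (median 0.49), and without scaling factors 14 were higher. Pkm, a pyruvate kinase, was at 26.9, 24.6 and 31.8 CPM against 163, 165, 160.1 and 177 CPM (-2.58 ± 0.19), and Eno2, the neuronal enolase, differed by -4.16 ± 0.52. The groups did not overlap for Pkm. Gapdh had few counts in this table, at no more than 10.9 CPM. Of 27 nuclear respiratory chain genes 27 were tested, 2 were higher and 8 lower (median 0.05), and without scaling factors 22 were higher and 1 lower. On leaving out 1 library, 3 were lower without liver progenitor replicate 2, where 1 was higher, and 5 without liver progenitor replicate 1 or 3 or beta cell replicate 1 or 5. Cox6a2, the heart and muscle isoform of a cytochrome oxidase subunit, was at 0.626, 0.439 and 0.513 CPM against 65.3, 62.9, 57.5 and 57.0 CPM (-6.67 ± 0.36), far from any other gene of the chain; the next lowest was Ndufa1 at -1.53.

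Antioxidant genes were higher in 12 and lower in 6 of the 22 tested of 28 (median 0.93), and without scaling factors in 17 and 0. Besides Cat and Mgst1, Gsta3 was at 659, 628 and 921 CPM against 36.9, 54.9, 44.1 and 42.2 CPM (4.05 ± 0.23), and Mgst3 differed by 2.12 ± 0.25. Gpx3, the secreted glutathione peroxidase, was lower (-2.12 ± 0.37) and so was Gstm2, at 10.01, 14.47 and 13.3 CPM against 38.7, 117, 24.9 and 34.8 CPM (-2.07 ± 0.45). Gstm2 was highest in beta cell replicate 3 and differed by -1.38 without it and by -0.72 without scaling factors (adjusted p = 0.107), and in the old libraries it was higher in liver progenitors by 1.17. Of 23 tested lipid synthesis genes 9 were higher and 1 lower, with a median of 0.23, and 22 were higher without scaling factors. In the old libraries 18 of 24 tested were higher and 2 lower. The cholesterol enzyme genes Hmgcs1 (1.69) and Sc5d (1.53) were among the higher ones in young libraries, and the citrate lyase gene Acly was lower (-2.20 ± 0.19).

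Genes of antigen presentation and interferon response were higher in liver progenitors. For MHC class I, 9 of the 13 tested of 16 were higher (median 1.41) and for interferon-stimulated genes 19 of the 25 tested of 31, with 1 lower (median 2.08). B2m, the light chain of class I molecules, was at 1134, 1151 and 1238 CPM against 133, 130.2, 105 and 147 CPM (3.19 ± 0.20), and the heavy chain H2-D1 at 703, 750 and 787 CPM against 226, 228, 221 and 188 CPM (1.79 ± 0.18). Ifitm3, a membrane restriction factor, was at 235, 229 and 315 CPM against 30.2, 50.5, 33.6 and 27.4 CPM (2.87 ± 0.23). The groups were separate for all 3. The lower gene was Lgals3bp (-0.47 ± 0.18, adjusted p = 0.0384), which turned sign without scaling factors (0.78). Its call was lost without beta cell replicate 1 (adjusted p = 0.0708) or 5 (0.0665) or without any one of the liver progenitor libraries (0.122, 0.1475 and 0.0636 for replicates 1, 2 and 3). H2-Q7 (3.905), Psmb8 (2.32), Irf9 (2.67), Ifi27 (2.31) and Ifitm2 (2.32) were higher as well. Of 10 class II genes 3 were tested and higher, Cd74 at 23.8, 39.5 and 70.8 CPM against 4.23, 11.5, 11.5 and 8.44 CPM (2.38 ± 0.40).

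Innate epithelial genes and chemokines were higher in 9 of the 11 tested of 27, with a median of 3.43. The other 16 were too low to test, and a member counted in liver progenitors alone could only come out higher. With no filter on low counts 15 of the 27 were higher and 1 lower. Complement C3 was at 474, 392 and 348 CPM against 23.0, 30.1, 36.4 and 34.8 CPM (3.72 ± 0.22), Wfdc2, a secreted protease inhibitor, differed by 3.89 ± 0.31 and the TWEAK receptor gene Tnfrsf12a, linked to progenitor growth in liver, by 3.43 ± 0.25. Among 25 tested matrix and adhesion genes 19 were higher and 1 lower (median 2.15): the laminin chain Lamb2 (4.13 ± 0.27), the tetraspanin Cd9 (3.97 ± 0.20) and collagen Col18a1 (3.88 ± 0.30) were higher, and nephronectin (Npnt) was lower (-3.21 ± 0.40). Early response and heat-shock genes were higher in 17 of 25 tested (median 1.33), with Junb at 516, 671 and 612 CPM against 149, 145, 102 and 91.8 CPM (2.29 ± 0.22), Hspa1a differing by 2.13 ± 0.20 and Zfp36 by 2.63 ± 0.23. Fos ranges overlapped, at 439, 1274 and 652 CPM against 496, 474, 688 and 289 CPM, and Fos was not called. Liver progenitor replicate 2 was the highest library for Fos, Junb and Zfp36.

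Proliferation genes gave no common direction, with 4 of 13 tested higher, 2 lower and a median of 0.11, and 9 were higher without scaling factors. Leaving out liver progenitor replicate 3 left 2 higher, and leaving out replicate 2 gave 4 lower. The D cyclins differed in opposite directions: Ccnd1 was at 203, 250 and 281 CPM against 81.7, 65.5, 66.2 and 71.8 CPM (1.78 ± 0.19), while Ccnd2, the cyclin of beta cell growth, was at 1157, 1168 and 960 CPM against 2674, 3158, 2178 and 3341 CPM (-1.37 ± 0.25). Ccnd2 was near 0 without scaling factors (-0.09). Ccne1 was lower by 2.82 ± 0.28, and 20 of the 33 genes, among them most mitotic genes, were too low to test.

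The genes with the largest differences over all genes were taken where the group with more RNA averaged 50 CPM or above and its libraries did not overlap the others. Unnamed gene models, pseudogenes, antisense genes, immunoglobulin and T cell receptor segments and sex-linked genes were left out. On the higher side Zfp385b (5.97 ± 0.52), the membrane protein gene Tmem45a (5.94 ± 0.37), Tstd1 (5.92 ± 0.26), the complement protease C1ra (5.32 ± 0.38), Ddit4l, an inhibitor of mTOR signalling (5.29 ± 0.21), the matrix protein gene Efemp1 (5.17 ± 0.27), Casp12 (5.14 ± 0.33) and the growth factor gene Pdgfc (5.13 ± 0.26) joined Spp1, Sox9, Id1 and Serpina1c. Ddit4l was at 420, 456 and 507 CPM against 12.7, 10.6, 11.5 and 11.6 CPM. Zfp385b varied most within liver progenitors, at 93.2, 271 and 79.0 CPM. Among abundant genes Clu, clusterin, was at 15400, 16590 and 16930 CPM against 1111, 1637, 1060 and 1176 CPM (3.71 ± 0.30) and Apoe at 6957, 7500 and 8731 CPM against 552, 553, 588 and 517 CPM (3.81 ± 0.26).

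On the lower side most of the named genes were those of acinar cells. Of 13 listed acinar genes 12 were tested and 12 were lower (median -7.52), with or without beta cell replicate 3. Amy2a5, pancreatic amylase, was at 0, 0.439 and 0 CPM in liver progenitors, 1 count in all, and at 204, 3286, 102 and 227 CPM in beta cells. Cela3b, an elastase, was at 27.5, 17.1 and 14.4 CPM against 4837, 17880, 2855 and 6715 CPM (-8.69 ± 0.72), and Try4, a trypsin, at 182, 142 and 173 CPM against 23580, 88920, 14370 and 38590 CPM (-7.96 ± 0.73). Replicate 3 was the highest beta cell library for each, and reads of near-identical trypsin and elastase genes may have been split between copies. Reg1, Reg2, Rnase1, Zg16, Pla2g1b and Tmed11 were also highest in that library; Tmed11 was at 0 in liver progenitors, at least 130.0-fold lower against a floor of 3 counts over that group. Xndc1 was different, at 12.5, 15.8 and 18.5 CPM against 2436, 4983, 4056 and 2798 CPM (-7.82 ± 0.41), and so was the peptide gene Pyy, highest in replicate 1.

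The old libraries, which the young contrast does not use, gave 3079 genes higher (27.2%) and 3242 lower (28.7%) of 11306 tested, with a median of -0.02. Old beta cell replicate 2 had 7278378 counts, against 1618476 to 1733379 in replicates 1, 3 and 4. Its share of counts on Ins1, Ins2 and Iapp was 36.45%, against 48.85% to 50.87% in those. Without replicate 2, 2827 genes were higher and 2708 lower in old libraries. Of the 2709 genes higher in young libraries 2611 were tested in old ones and 2261 were called higher there (86.6%), 5 lower. Of the 2606 lower genes 2553 were tested, 2230 were called lower (87.4%) and 7 higher. Sox9 differed by 6.41 in old libraries, Krt19 by 4.44, Spp1 by 6.40, Pdx1 by -5.76 and Ins2 by -3.76. Each of these 5 genes kept its direction and was called at both ages.

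A test of the difference between the ages, cell type by age, called 83 of 12017 genes with a higher contrast in old libraries (0.691%) and 28 with a lower one (0.233%). At an unadjusted p below 0.05 there were 1057. Leaving out 1 library at a time gave 47 to 119 genes higher and 9 to 29 lower. Levels in this test were scaled over the 14 libraries of both ages. Acinar genes were 10 of the 12 tested of their list, all with a higher contrast at old age: Pla2g1b, a phospholipase of acinar cells, averaged 2010 ± 1717 CPM (SD, n = 4) in young and 62.3 ± 69.1 (SD, n = 4) in old beta cells, and 8.54 ± 2.48 and 11.6 ± 4.29 (SD, n = 3) in young and old liver progenitors. The neutrophil genes S100a9, S100a8 and Camp had higher contrasts too; S100a8 ranged from 50.1 to 638 CPM in old liver progenitors and from 2.71 to 5.29 CPM in young ones. Hamp2, a hepcidin gene, had a higher contrast at old age as well, at 35.6 to 278 CPM in young beta cells and 1.36 to 5.46 CPM in old ones, while liver progenitors held 3.97 to 11.4 and 19.9 to 30.1 CPM. Of the biliary markers, Cd24a was called with a higher contrast at old age (1.88 ± 0.42, adjusted p = 0.0309). Its level was 29.5 to 112.6 CPM in young and 12.1 to 19.5 CPM in old beta cells. In liver progenitors Cd24a was at 276 to 359 CPM in young and 294.5 to 358.5 CPM in old libraries.

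The 4 genes named for a lower contrast at old age were higher in old than in young beta cell libraries. Cldn8, a tight junction claudin, was at 58.9 to 87.9 CPM in young and 73.0 to 84.1 CPM in old liver progenitors, but at 5.08 to 11.8 CPM in young and 38.1 to 68.7 CPM in old beta cells, a difference of contrasts of -2.62 ± 0.37 with an adjusted p of 0.000936. Matn2, a matrix protein gene, was at 12.2 to 20.7 CPM in young and 57.2 to 141 CPM in old beta cells (-3.78 ± 0.53), and Neb and Snhg11 had the same order of groups. For all 4 the old beta cell libraries did not overlap the young ones. Not all of the 28 genes had this order: Bex1, chosen after its values were seen, was at 47.8 to 67.35 CPM in young and 52.3 to 75.9 CPM in old beta cells, but at 66.2 to 74.0 CPM in young and 12.7 to 25.3 CPM in old liver progenitors.

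**Figure D4:**
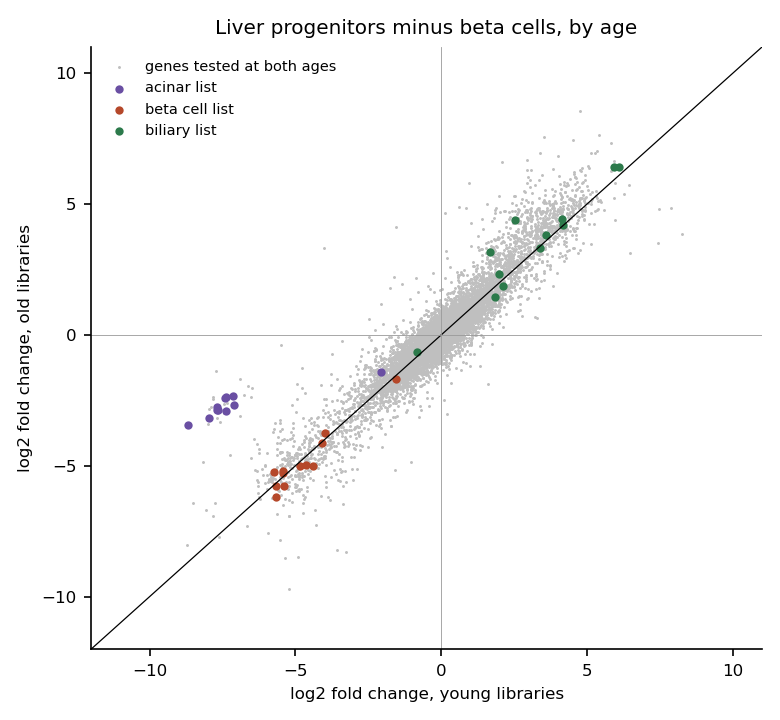
Each grey point is a gene tested at both ages, by its log2 fold change, liver progenitors minus beta cells, in young (horizontal) and old libraries (vertical), with the line of equal values. Most beta cell and biliary markers lie near the line, but the biliary marker Cd24a, at 2.52 in young and 4.38 in old libraries, lies above it. Acinar genes, with a median of -7.52 in young libraries, lie above the line too.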

How the data were processed

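Libraries were 3'-biased poly(A) RNA-seq with an 8 bp index and a 10 bp molecular identifier, per the labels' protocols. The deposited table holds whole-number counts per gene made by the authors; the submitters' processing notes name STAR, featureCounts 2.0.1 and GRCm38.p6. No source used here says whether the counts are of identifiers or reads. Columns of 79 libraries were not used. The table lists 37 mitochondrially encoded genes with 0 counts.

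Genes were kept by filterByExpr (minimum count 10, minimum total 15), scaled by TMM and tested with edgeR 4.0.16 quasi-likelihood fits (R 4.3.3) on the 7 young libraries, on the 7 old ones, and on all 14 for the difference between ages. p-values were adjusted by Benjamini-Hochberg over all genes tested, at a threshold of 0.05; glmTreat tested for more than 2-fold. On simulated data for the young contrast with 10616 genes, 38% of 2-fold and 89% of 4-fold changes were recovered. Of the 137 calls in these data 7.30% were false. The measured young contrast had far more calls, 2709 higher and 2606 lower. Recovery and the share of false calls at that number of calls was not tested. Replicate pairs differed beyond sampling noise (18 pairs, 0 identical). Replicate numbers did not pair libraries.

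Genes named were all transcription factor, beta cell and biliary list members, the 12 largest differences per direction, up to 4 members per direction of other lists by adjusted p, members whose level a statement needed, the 5 most counted genes per group, 5 per direction for the difference between ages, and 2 of each other marker list; some of these genes are not reported here. Members and lists were chosen with earlier results of these data known. Alternatives were DESeq2 1.42.0, RLE factors, no filter, a replicate block, hormone genes left out, a fit over both ages and each library left out. Acinar genes left out and no scaling factors were chosen after seeing the data. The hormone or acinar genes were removed before filtering, scaling and testing.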

Additional observations from a re-analysis of the deposited data

Results flagged for a closer look

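Among 160 named genes with at least 40 counts over the young beta cell libraries, 8 had 1 library far from the other 3 of its group by Dixon's criterion; chance flags about 1 in 20 groups. In replicate 3, the library with the largest acinar share, Amy2a5 was high at 3286 CPM, Gstm2 was high at 116.9 CPM and Lgals3bp was low at 110.7 CPM. In replicate 4, the factors Nkx6-1 and Myt1 were high at 430.5 and 129.4 CPM, and Krt23 and Ndufa4 were low at 4.794 and 217.7 CPM. In replicate 5, Rfx3 was high at 22.16 CPM.

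The contrast of liver progenitors with beta cells differed between old and young libraries for 83 genes upward and 28 downward by the edgeR test of cell type by age. Among those genes with at least 20 CPM in the highest of the 4 groups, the largest upward differences, old minus young on the log2 scale, were 8.82 for S100a9, 7.37 for Hamp2, 6.40 for S100a8, 6.29 for Camp and 5.47 for Pla2g1b. Downward differences were -3.78 for Matn2, -2.62 for Cldn8, -2.34 for Neb and -2.29 for Snhg11. Over 14 fits that each left out 1 library the call was lost in 8 for Snhg11 (adjusted p up to 0.211), 7 for Camp (0.134), 5 for Neb (0.0751) and 2 for Pla2g1b (0.0630), and in 0 for S100a9, S100a8, Hamp2, Matn2 and Cldn8.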

How the results depend on the processing

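Leaving out 1 library at a time gave 2364 to 2604 genes higher and 2315 to 2654 lower in young libraries, 1246 to 1340 and 1101 to 1272 at more than 2-fold, 2815 to 2918 and 2708 to 3114 in old libraries, and 47 to 119 and 9 to 29 for the difference between ages. Without scaling factors 7347 genes were higher and 856 lower, 4537 and 583 at more than 2-fold. With no filter on low counts 166 and 62 genes differed between ages. With the replicate block 2316 genes were higher and 2249 lower in young libraries. A library whose number occurs in 1 group only does not inform the contrast in that fit, so it rests on fewer libraries. Same-numbered libraries did not deviate together (correlations -0.0036 and 0.0111), so the numbers were not taken as pairs. The call of Glis3 was lost with the block (0.56, adjusted p = 0.127), which left 0 islet factors higher. For 198 named genes, 2869 of 2945 values under the alternatives kept direction and side of the threshold, 49 lost the call, 2 gained one and 25 changed sign. Without scaling factors the sign turned for Cldn4 (0.54), Gstp1 (0.17), Ift20 (0.0367), Kif3a (0.0578), Krt7 (0.44), Lgals3bp (0.78), Matn2 (0.22), Ndufv2 (0.60), Neb (0.50), Rfx3 (0.34), Snhg11 (0.85) and Xbp1 (0.46), and for Foxa2 (1.18), Foxa3 (1.16), Hnf4g (1.13) and Malat1 (1.09). With no filter Foxa2 (0.0646), Foxa3 (0.0137), Hnf4g (0.07) and Malat1 (0.0297) turned, with the replicate block Hnf4g (0.29), and on leaving out 1 library Foxa2 (range -0.201 to 0.0211, positive without liver progenitor replicate 2), Foxa3 (-0.702 to 0.257, positive without beta cell replicate 3 or liver progenitor replicate 3) and Hnf4g (-0.3705 to 0.265, positive without liver progenitor replicate 3). The cause was not tested. Depth limits the low genes: 20 of 33 proliferation genes and 13 of 18 Notch genes could not be tested.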
